A study of Mus musculus with 6 samples.

Results

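Cathepsins are proteases of the lysosome, the acidic compartment in which a cell breaks down proteins and other macromolecules. They are made as inactive precursors, carried to the lysosome largely by mannose 6-phosphate receptors, activated there by cleavage, and held in check by inhibitors such as the cystatins. Most are cysteine proteases, cathepsin D is an aspartic protease and cathepsin A a serine carboxypeptidase, and cathepsin L is known as the major excreted protein of transformed mouse fibroblasts.

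RNA of 10 cathepsin genes (Ctsa, Ctsb, Ctsc, Ctsd, Ctsf, Ctsh, Ctsk, Ctsl, Ctss and Ctsz) was measured in immortalized murine embryonic fibroblasts (MEF) on 1-colour Agilent arrays. The genes were found by the gene name that the scanner files give to a probe: 13 of the 55681 probes carried 1 of these names, among 26 probes whose gene name begins with Cts. The members were chosen by their measured log2 differences from WT MEF as well as by name: Ctsh was picked for moving in opposite directions in the knockouts and Ctsc for its lower level in TIAR KO MEF. The values of this pair are therefore a description, without a test, and the other 8 were tested. TIA1 and TIAR are related RNA-binding proteins that act on the splicing, stability and translation of RNA.

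There were 3 groups with 2 arrays each: wild-type MEF (WT MEF, strain label W4), MEF lacking TIA1 (TIA1 KO MEF, BALB/c) and MEF lacking TIAR (TIAR KO MEF, C57BL/6), all untreated as far as the labels say. Strain label and genotype change together here, so the effects of genotype, of strain and of the line itself cannot be told apart. A single slide held the 6 arrays, with the TIA1 KO arrays in a row of their own, so slide row and TIA1 KO cannot be told apart either. Median spot intensities were 152 and 140 for WT, 458 and 218 for TIA1 KO and 136 and 119 for TIAR KO MEF. By the rating of the scanner software, 23569 and 26295 probes were well above background for WT, 16021 and 19996 for TIA1 KO and 24796 and 26011 for TIAR KO MEF. The SD of log2 values within a group, pooled over probes, was 0.273 (WT), 0.442 (TIA1 KO) and 0.285 (TIAR KO), so the TIA1 KO arrays were the least precise. With 2 arrays a group, the precision of all values is limited by that number. The design text calls the replicates independent, without saying whether they are separate cell lines or separate cultures of the same line, and p-values measure only the spread between these samples. A probe was called, as risen or fallen, where its limma p-value, adjusted over all probes by the Benjamini-Hochberg method, was under 0.05 and its fold change above 2. A gene was read from its brightest probe.

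The labels were first set against the targeted genes. The brightest Tia1 probe read 10.72 and 8.54 (log2 intensity) in WT, 7.87 and 8.44 in TIA1 KO and 9.56 and 9.58 in TIAR KO MEF. Tia1 was thus lowest in TIA1 KO MEF, at a log2 fold change of -1.47 that did not pass the test (limma, adjusted p = 0.288), and the WT arrays disagreed with each other. TIAR is encoded by Tial1, whose brightest probe read 13.22 on the WT array that measured it, 14.07 and 13.69 in TIA1 KO and 9.57 and 11.60 in TIAR KO MEF. Its difference of -2.63 in the TIAR KO cells, on the log2 scale, did not pass the test (adjusted p = 0.200). Tia1 had 3 probes and Tial1 had 2, and only the brightest of each was read. Where these probes lie relative to the disrupted parts of the genes is not given in the sources used here. The study itself reports, by western blot and RT-PCR, that each knockout lacked the protein and mRNA of its targeted gene. Gapdh, a glycolytic enzyme used as a control, differed from WT MEF by -0.04 (TIA1 KO) and 0.09 (TIAR KO) on the log2 scale.

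The probes that carry the Ctsh and Ctsc values are 60 bases long, and their first 30 bases are shown because everything said of these genes rests on them. Each is written 5′ to 3′, and capitals are not used since no part was singled out.
Ctsh probe, chr9:89970828-89970887 (mm9): acctagaatcgtctctctttccagctctct
Ctsc brightest probe, chr7:95458436-95458495 (mm9): cgggtctttatcactcacagagtgatttag
Ctsc second probe, chr7:95435428-95435487 (mm9): ttgttcatgcagctgggaactgtgggaatg
The brightest Ctsc probe stands for the RefSeq transcript NM_009982, and the second, upstream of it on the chromosome, for the Ensembl transcript ENSMUST00000131108. The Ctsh probe stands for NM_007801. Where in the gene model each probe falls was not analysed here.

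Ctsh encodes a lysosomal aminopeptidase. Its log2 intensity was 8.49 and 8.25 in WT, 14.48 and 14.59 in TIA1 KO and 6.81 and 6.57 in TIAR KO MEF. The 3 groups did not overlap, and their order was TIA1 KO, WT and TIAR KO. In TIA1 KO MEF the mean was 72.1-fold that of WT MEF, a log2 fold change of 6.17 ± 0.17 (SE, n = 2 per group). In TIAR KO MEF the probe was not well above background on either array. Its measured log2 fold change against WT MEF there was -1.68 ± 0.17. With each reading raised to the lowest signal of its array rated above background, where that was higher, the level was at least 2.57-fold lower. Set directly against TIA1 KO MEF, the TIAR KO level was at least 185-fold lower.

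Ctsc encodes dipeptidyl peptidase I, which activates serine proteases of immune cells by removing dipeptides. Its brightest probe read 11.40 and 11.41 in WT, 7.92 and 7.99 in TIA1 KO and 6.68 and 6.89 in TIAR KO MEF. It was well above background on the WT arrays alone. Its log2 fold change was -3.46 ± 0.15 for TIA1 KO MEF, at least 10.6-fold lower, and -4.62 ± 0.15 in TIAR KO MEF, at least 22.1-fold lower. Both knockouts are read against the same WT arrays, so these values are not separate evidence of the WT level. No fold is given between the knockouts, since neither had a measured level. On TIA1 KO array 2 the lowest value rated well above background was 5.78, under the reading of this probe. That reading was used in the bound, which is therefore close to the measured fold.

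The second Ctsc probe did not follow the first in every group. It read 7.63 and 7.83 in WT, 8.91 and 7.13 in TIA1 KO and 6.73 and 7.09 in TIAR KO MEF. Only WT array 2 was rated well above background at this probe, and its TIA1 KO arrays lay on either side of the WT values. Averaging both probes left the log2 fold change of Ctsc at -1.59 (TIA1 KO) and -2.72 (TIAR KO). Neither probe was well above background on a knockout array, so these values are not exact folds.

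**Figure D1:**
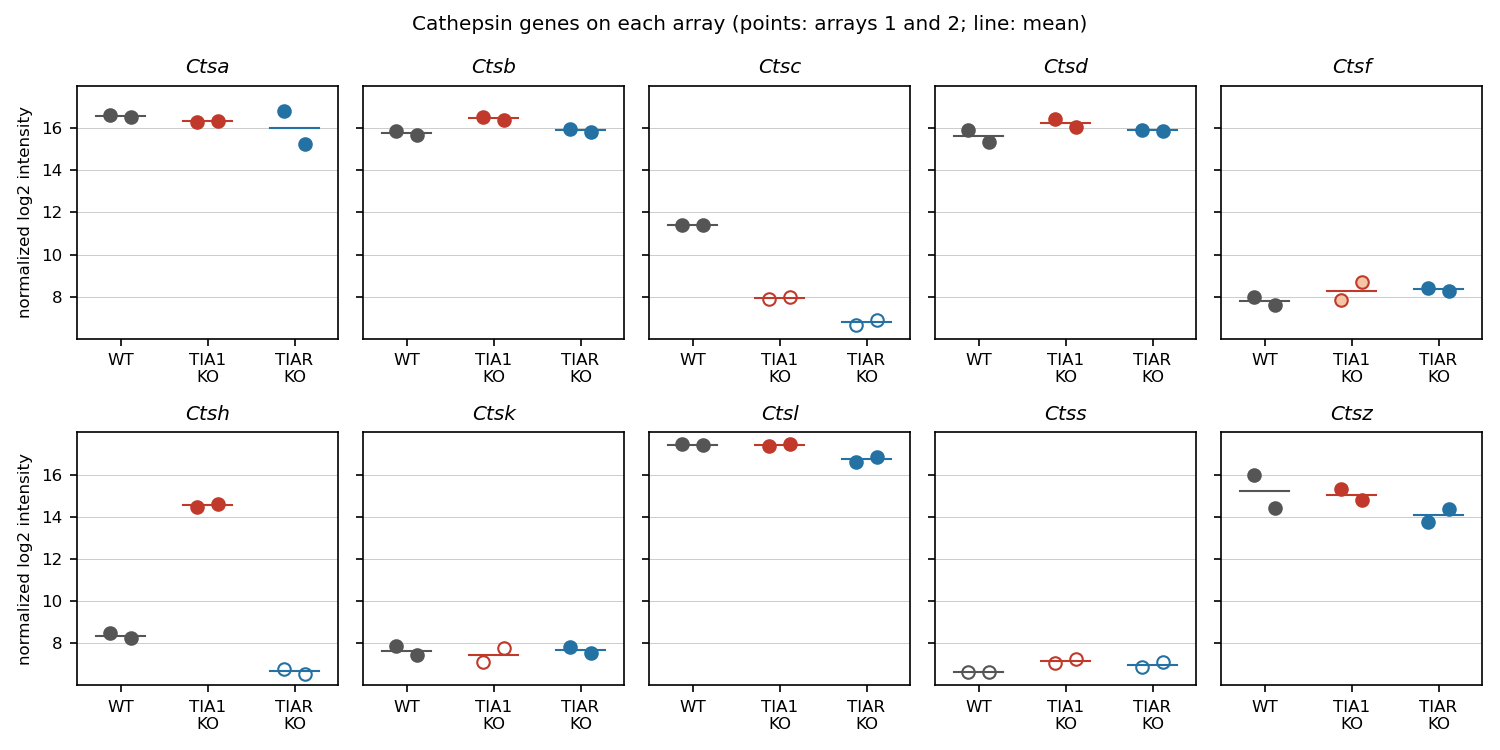
Normalized log2 intensity of the brightest probe of each of the 10 cathepsin genes in WT, TIA1 KO and TIAR KO MEF. Each point is 1 array (open: not well above background on either array of the group; pale: well above background on 1 of them) and each line the mean of 2. Ctsh separates all 3 groups, from 6.57 to 14.59, and Ctsc separates WT MEF, at 11.40 and 11.41, from the knockouts.

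By the rule for calls, Ctsh was higher and Ctsc lower in TIA1 KO MEF, where 3.54% of all probes were called (2.18% higher and 1.36% lower), and both were lower in TIAR KO MEF, where 5.76% were called (3.39% higher and 2.37% lower). Nothing is read from these calls, since the same contrasts chose the genes. The other 8 cathepsins were not called in any comparison. Against WT MEF 0 of 8 were called in TIA1 KO MEF, and 2 of them, Ctsb and Ctss, had an unadjusted p under 0.05, as had 27.8% of all probes, with Ctss not well above background on any array. In TIAR KO MEF 0 of 8 were called, and 2, Ctsf and Ctsl, had such an unadjusted p, beside 20.2% of all probes. Between the knockouts 0 of 8 were called against 3.35% of all probes (1.72% higher and 1.63% lower in TIAR KO MEF), and 3, Ctsb, Ctsl and Ctsz, had such an unadjusted p, beside 22.6%. Called shares of 3.35% to 5.76% amount to less than 1 gene in 8, so the counts do not set these genes apart from the rest of the array. The median log2 fold change of the 8 was 0.23 (TIA1 KO) and 0.08 (TIAR KO), beside -0.09 and -0.02 over all probes. In the direct comparison of TIAR KO with TIA1 KO MEF the log2 differences of the 8 lay between -0.99 (Ctsz) and 0.25 (Ctsk), with adjusted p between 0.134 and 0.897 and a median of -0.32, beside 0.05 over all probes.

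Ctsl and Ctsb are endopeptidases found in most cells. Ctsl (probe at chr13:64465287-64465346, mm9) read 17.43 and 17.40 in WT, 17.33 and 17.45 in TIA1 KO and 16.62 and 16.82 in TIAR KO MEF. Both TIAR KO arrays lay below the other 4, with a log2 fold change against WT MEF of -0.70 ± 0.15 (limma, adjusted p = 0.0593), just outside the threshold and under 2-fold. With arrays set to a common median, without reshaping their distribution, this fold change was -1.13 and was called (limma, adjusted p = 0.0106). For TIA1 KO MEF the difference from WT MEF was -0.03 ± 0.15 on the log2 scale (adjusted p = 0.918). Ctsb (probe at chr14:63761906-63761965) read 15.88 and 15.65 in WT, 16.53 and 16.38 in TIA1 KO and 15.97 and 15.83 in TIAR KO MEF. The TIA1 KO arrays were the highest, at a log2 fold change of 0.69 ± 0.17 (adjusted p = 0.113), and the TIAR KO arrays overlapped the WT range (0.13 ± 0.16, adjusted p = 0.738). With the common median the log2 fold changes of Ctsb were -0.86 (TIA1 KO) and -0.32 (TIAR KO), so their direction depends on the scaling.

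Ctsz, a carboxypeptidase also called cathepsin X, varied most among the WT arrays. Its probe (chr2:174253228-174253287, mm9) read 16.002 and 14.423 in WT, 15.32 and 14.78 in TIA1 KO and 13.74 and 14.38 in TIAR KO MEF. The TIAR KO arrays were the lowest, but the log2 fold change of -1.15 ± 0.54 did not pass the test (adjusted p = 0.333), and the WT arrays lay further apart than that. Without WT array 1 it was -0.36 (adjusted p = 0.673), and without WT array 2 it was -1.94 and was called (adjusted p = 0.0413), so the value changed with the WT array read. With 1 WT array the spread came from the TIAR KO pair alone, and the lone array was assumed to vary like it. For TIA1 KO MEF the log2 difference was -0.16 ± 0.59 (adjusted p = 0.868).

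Ctsd, the aspartic protease, had a pair of probes that gave the same order. The brightest (chr7:149561962-149562021, mm9) read 15.91 and 15.34 in WT, 16.41 and 16.06 in TIA1 KO and 15.92 and 15.85 in TIAR KO MEF. The log2 fold changes were 0.61 ± 0.27 in TIA1 KO MEF (adjusted p = 0.230) and 0.26 ± 0.22 in TIAR KO MEF (adjusted p = 0.619). At the second probe (NM_009983, position listed from 149566847 to 149568505 on chromosome 7) they were 1.19 ± 0.27 (adjusted p = 0.100) and 0.88 ± 0.24 (adjusted p = 0.109). There the knockout arrays, from 12.78 to 13.24, all lay above the WT values of 11.63 and 12.27. With the common median the log2 fold changes of the brightest probe turned to -0.95 (TIA1 KO) and -0.20 (TIAR KO). Without WT array 2 its TIAR KO value was -0.024.

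The Ctsa probes disagreed. Ctsa encodes protective protein, the serine carboxypeptidase that stabilizes β-galactosidase and neuraminidase 1 in the lysosome. The brightest probe (chr2:164665023-164665082, mm9) read 16.64 and 16.53 in WT, 16.30 and 16.35 in TIA1 KO and 16.81 and 15.24 in TIAR KO MEF. The TIAR KO arrays lay on either side of the WT values. The log2 fold changes were -0.26 ± 0.15 in TIA1 KO MEF (adjusted p = 0.317) and -0.56 ± 0.50 in TIAR KO MEF (adjusted p = 0.635). Without TIAR KO array 1 the latter was -1.35 and was called, and without TIAR KO array 2 it was 0.22, with the spread taken from the WT pair alone in both fits. The second probe (chr2:164666433-164666492) was not well above background in TIA1 KO MEF, at least 1.76-fold lower than in WT MEF (measured log2 fold change -1.27 ± 0.36, adjusted p = 0.130), and in TIAR KO MEF it differed from WT MEF by -0.08 ± 0.20 (adjusted p = 0.879).

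Ctsf, Ctsk and Ctss lay close to the background of the array. Ctsf, a cysteine protease (probe at chr19:4860454-4860513, mm9), read 7.98 and 7.61 in WT, 7.86 and 8.70 in TIA1 KO and 8.44 and 8.28 in TIAR KO MEF. Its log2 fold change was 0.56 ± 0.18 in TIAR KO MEF (adjusted p = 0.163), where the groups did not overlap, and 0.49 ± 0.35 in TIA1 KO MEF (adjusted p = 0.392), where they did. The TIA1 KO value was 0.91 without TIA1 KO array 1 and 0.065 without TIA1 KO array 2. With processed intensities scaled to their 75th percentile, Ctsf stood at 2.29 (TIA1 KO) and 1.34 (TIAR KO). The medians over all probes were then 1.98 and -0.04. Ctsk, the collagenase by which osteoclasts degrade bone matrix (probe at chr3:95313165-95313224), read 7.89 and 7.43 in WT, 7.10 and 7.78 in TIA1 KO and 7.84 and 7.55 in TIAR KO MEF. Its groups overlapped in every comparison, with adjusted p of 0.665 (TIA1 KO) and 0.962 (TIAR KO), and it was not well above background in TIA1 KO MEF. Ctss, the cysteine protease of antigen-presenting cells (probe at chr3:95360245-95360304), read from 6.63 to 7.28 and was not well above background on any array, so its groups have no order.

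**Figure D2:**
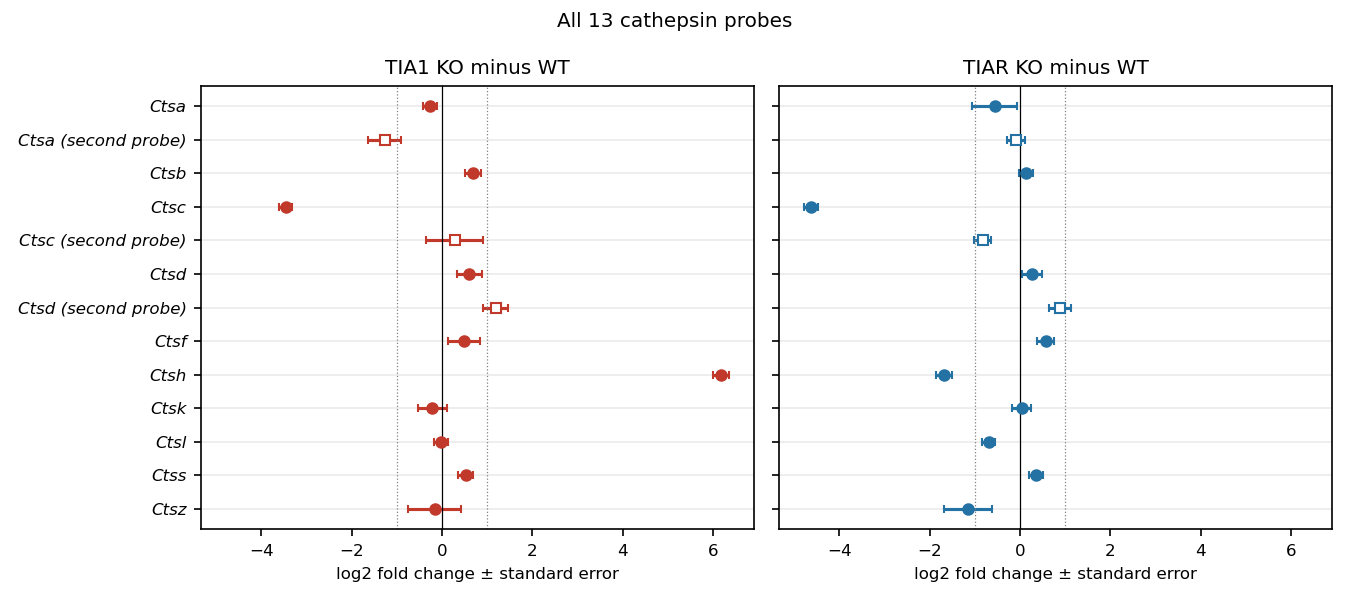
Log2 fold change against WT MEF of all 13 cathepsin probes, with its standard error (bars), in TIA1 KO MEF (left) and TIAR KO MEF (right). Circles are the brightest probe of a gene and squares a second probe, and the dotted lines mark a 2-fold change. Ctsh lies at 6.17 and -1.68 and the brightest Ctsc probe at -3.46 and -4.62, while every other brightest probe lies between -1.15 and 0.69.

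The remaining cathepsin genes on the array were read for comparison. Of 13 other cathepsins, among them the placental cathepsins (Ctsj, Ctsm, Ctsq, Ctsr, Cts3, Cts6, Cts7 and Cts8), only Ctsw was well above background on both arrays of a group. Ctsw is a cysteine protease known from cytotoxic lymphocytes. It read 8.45 and 8.67 in WT, 10.63 and 10.69 in TIA1 KO and 7.83 and 7.95 in TIAR KO MEF. It rose in TIA1 KO MEF by 2.10 ± 0.17 on the log2 scale (limma, adjusted p = 0.0161), and its difference of -0.67 ± 0.16 in TIAR KO MEF did not pass the test (adjusted p = 0.0733). Ctse, at 9.79, and Cts8, at 11.13, were above background on TIA1 KO array 1 alone. Of the 13, 1 was thus called with TIA1 lost and 0 with TIAR lost, beside 3.54% and 5.76% of all probes. Their median log2 fold change from WT MEF was 0.34 (TIA1 KO) and -0.03 (TIAR KO), beside -0.09 and -0.02 over all probes.

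The endogenous inhibitors of cathepsins and related proteases were read next. This list, the lists below and the markers were chosen with earlier results of these data known, so their calls are not independent tests. Of 16 inhibitor genes, 7 stood well above background on both arrays of some group. With TIA1 lost 3 of the 16 rose and 0 fell, beside 2.18% of all probes called higher and 1.36% lower, and with TIAR lost 4 rose and 0 fell, beside 3.39% and 2.37%. The medians of the 16 were 0.34 and 0.01, and no test of the list was made. Cst3 encodes cystatin C, the abundant secreted inhibitor of cysteine cathepsins. It read 16.08 and 15.96 in WT, 17.67 and 17.64 in TIA1 KO and 17.14 and 17.16 in TIAR KO MEF. All 4 knockout arrays lay above both WT arrays, and Cst3 rose by 1.64 ± 0.15 in TIA1 KO MEF (adjusted p = 0.0222) and by 1.13 ± 0.14 in TIAR KO MEF (adjusted p = 0.0112) on the log2 scale. Each of these calls held under 9 of 14 alternatives. Cstb, another inhibitor of the list, went the other way without being called. It read 16.44 and 16.45 in WT, 15.57 and 15.50 in TIA1 KO and 15.79 and 15.96 in TIAR KO MEF. Its log2 fold changes were -0.91 ± 0.15 in TIA1 KO MEF (limma, adjusted p = 0.0626) and -0.57 ± 0.15 in TIAR KO MEF (adjusted p = 0.0930).

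Serpina3g, an intracellular serpin known to inhibit cathepsins, had the largest change of the list in each knockout. It read 7.18 and 7.12 in WT, 12.10 and 12.05 in TIA1 KO and 12.99 and 12.62 in TIAR KO MEF. The log2 fold changes were 4.92 ± 0.15 (adjusted p = 0.00363) and 5.65 ± 0.18 (adjusted p = 0.000221). Serpina3 genes form a family of similar copies, and cross-hybridization at this probe was not tested. Cst6, cystatin E/M, read 7.74 and 7.75 in WT, 11.26 and 11.48 in TIA1 KO and 7.13 and 7.34 in TIAR KO MEF. It rose in TIA1 KO MEF (3.62 ± 0.17, adjusted p = 0.0057), and its log2 difference in TIAR KO MEF was -0.51 ± 0.15 (adjusted p = 0.133). Serpinb9 (1.74 ± 0.17, adjusted p = 0.00486) and Serping1 (2.28 ± 0.16, adjusted p = 0.00166) rose in TIAR KO MEF, and these are known as inhibitors of granzyme B and of the first complement component, which are serine proteases.

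Of the 8 genes that sort enzymes to the lysosome, 2 rose in each knockout and 0 fell, beside 2.18% of all probes called higher with TIA1 lost and 3.39% with TIAR lost. Gnptab encodes the α and β subunits of the transferase that makes the mannose 6-phosphate tag. It read 11.51 and 11.35 in WT, 12.61 and 12.74 in TIA1 KO and 12.59 and 12.45 in TIAR KO MEF. The log2 fold changes were 1.24 ± 0.16 (adjusted p = 0.0425) and 1.09 ± 0.15 (adjusted p = 0.0156). These calls lay near the thresholds: Gnptab stayed called under 6 of 14 alternatives in TIA1 KO and 8 of 14 in TIAR KO MEF, and in the authors' table it read 1.18 in TIA1 KO MEF (adjusted p = 0.0718). Lrp1, an endocytic receptor, rose in TIA1 KO MEF (1.34 ± 0.17, adjusted p = 0.0414) and stayed called under 5 of 14 alternatives (authors' table, adjusted p = 0.0663). With TIAR lost its difference of 0.89 ± 0.15 had an adjusted p of 0.0256 but stayed under 2-fold. Sort1, the receptor sortilin, read 7.60 and 7.74 in WT, 7.48 and 8.18 in TIA1 KO and 10.73 and 10.17 in TIAR KO MEF, and rose in TIAR KO MEF by 2.78 ± 0.22 (adjusted p = 0.00257). The mannose 6-phosphate receptors were not called. Igf2r differed by 0.92 (adjusted p = 0.0913) in TIA1 KO MEF and 0.78 (adjusted p = 0.0688) in TIAR KO MEF, and M6pr, fitted without WT array 2, by -0.45 (adjusted p = 0.383) and -0.73 (adjusted p = 0.122).

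Of 6 processing and partner enzymes 0 were called in either knockout, beside 3.54% of all probes called with TIA1 lost and 5.76% with TIAR lost. Lgmn, the legumain that cleaves cathepsin precursors, was nearest, with 14.39 and 13.50 in WT, 14.85 and 14.37 in TIA1 KO and 15.61 and 15.29 in TIAR KO MEF, with a difference from WT of 1.5 ± 0.32 in TIAR KO MEF on the log2 scale (adjusted p = 0.0554). Neu1 and Glb1, the partners of cathepsin A, had adjusted p-values of 0.288 and 0.0775 in TIA1 KO and 0.498 and 0.734 in TIAR KO MEF. Of 4 transcription factors of lysosomal genes, 1, Mitf, was called, as lower with TIAR lost, where 2.37% of all probes were called lower. It read 10.71 and 10.75 in WT, 7.87 and 9.33 in TIA1 KO and 9.05 and 9.27 in TIAR KO MEF, and it fell in TIAR KO MEF (-1.57 ± 0.15, adjusted p = 0.00476). In TIA1 KO MEF, whose arrays differed from each other, its log2 difference was -2.14 ± 0.52 (adjusted p = 0.109).

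**Figure D3:**
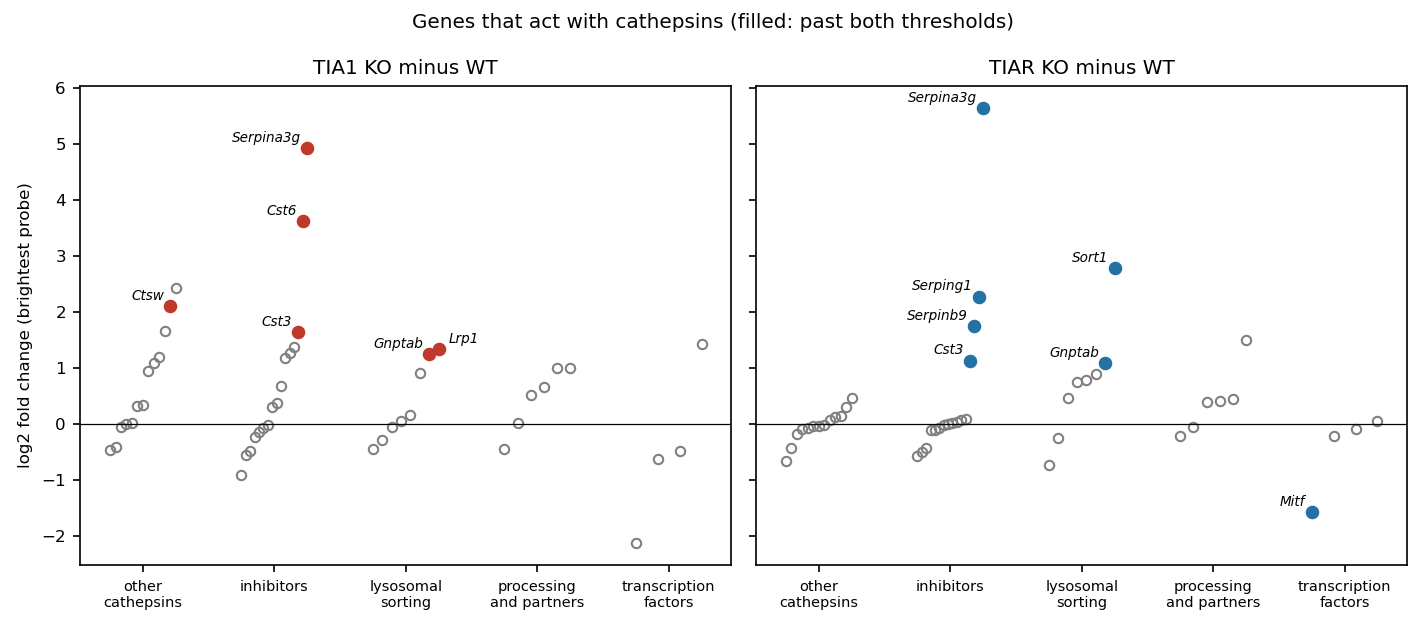
Log2 fold change against WT MEF of genes that act with cathepsins, by role, in TIA1 KO MEF (left) and TIAR KO MEF (right). Each point is the brightest probe of 1 gene, ordered by value within its list and filled where it was called. The inhibitors hold 3 filled points on the left and 4 on the right, all above 0, and Mitf is the filled point below 0.

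No call in TIA1 KO MEF was made with 1 WT array, when the spread came from the TIA1 KO pair alone and the lone WT array was assumed to vary like it. Without WT array 1 or WT array 2, limma called 0 of all probes against WT MEF (7202 and 7415 probes had an unadjusted p under 0.05), although the Ctsh log2 fold change was then 6.29 and 6.05 and that of Ctsc -3.46 and -3.45. A different scaling moves the TIA1 KO values as a whole. When arrays were set to a common median, without reshaping their distribution, the median of all probes in TIA1 KO MEF was -0.67 in place of -0.09, and Ctsa (-1.80), Ctsl (-1.51) and Ctsz (-1.73) were called as lower. Gnptab and Lrp1 then stood at -0.31 and -0.24 and Cst3 at 0.11, so the directions of Gnptab and Lrp1 in TIA1 KO MEF hold only relative to this choice. Ctsh and Ctsc kept their signs under each alternative and each omitted array, which is a description, since these genes were chosen by their values.

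**Figure D4:**
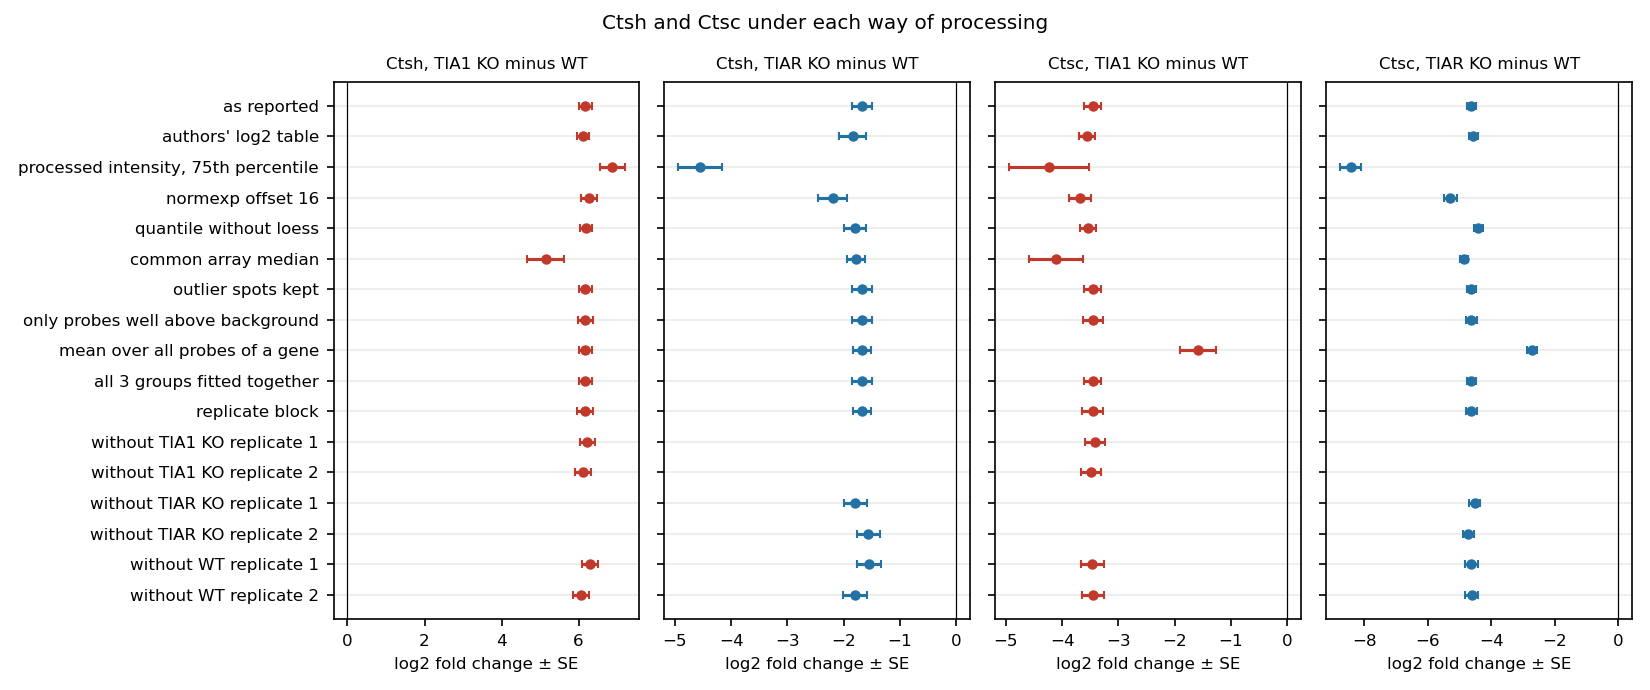
Log2 fold change of Ctsh and Ctsc against WT MEF, with its standard error, as reported (top row) and under each other way of processing or with 1 array left out. Ctsh lies between 5.15 and 6.88 in TIA1 KO MEF and between -4.55 and -1.56 in TIAR KO MEF, and Ctsc between -4.23 and -1.59 and between -8.42 and -2.72.

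Markers of cell types were read because several cathepsins are abundant in macrophages and osteoclasts. In bulk RNA, fewer cells of a type and less RNA per cell cannot be told apart. Of 10 fibroblast markers, 6 rose with TIA1 lost, beside 2.18% of all probes called higher, and 8 with TIAR lost, beside 3.39%. Of these calls, Col1a2 with TIA1 lost held under 6 of 14 alternatives (authors' table, adjusted p = 0.0628) and P4hb with TIAR lost, at a log2 fold change of 1.001, under 7 of 14, and each of the others held under at least 9. The summed intensity of the 10 was 572489 and 605058 in WT, 1391440 and 1374550 in TIA1 KO and 1417270 and 1438300 in TIAR KO MEF. Vim and S100a4 read between 17.24 and 18.36 on every array, but Pdgfra, a receptor typical of fibroblasts, was not well above background in WT MEF (6.37 and 6.40) and read 10.05 and 10.23 in TIA1 KO and 11.68 and 11.51 in TIAR KO MEF. Col3a1, a fibrillar collagen, read 9.52 and 9.08 in WT MEF against 15.59 and 15.65 in TIA1 KO and 15.16 and 16.65 in TIAR KO MEF. Thy1 read 6.63 and 6.98 in WT, 7.11 and 7.48 in TIA1 KO and 14.84 and 14.74 in TIAR KO MEF. Pdgfra was thus near background in WT MEF alone and Thy1 high in TIAR KO MEF alone, and the part of these differences between the cells in the cathepsin values was not tested.

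Of 10 myeloid markers, 2 rose in TIA1 KO MEF (Itgam and Tyrobp) and 1 fell in TIAR KO MEF (Aif1), beside 2.18% of all probes called higher in the first and 2.37% called lower in the second. Their summed intensity was 7559 and 5641 in WT, 16422 and 13592 in TIA1 KO and 8580 and 8473 in TIAR KO MEF. Itgam was the most intense of them on every array, and read 11.94 and 11.47 in WT, 13.65 and 13.40 in TIA1 KO and 11.89 and 11.85 in TIAR KO MEF. Without Itgam the sum of the other 9 was 3631 and 2808 in WT, 3526 and 2809 in TIA1 KO and 4797 and 4784 in TIAR KO MEF, so the high sum of the TIA1 KO arrays came from the Itgam probe. The rise of Itgam stayed called under 5 of 14 alternatives and that of Tyrobp under 7 of 13, and the authors' table lost both (adjusted p = 0.0631 and 0.0823). Cd68, a glycoprotein of lysosomes and endosomes abundant in macrophages, was well above background on all 6 arrays and read 10.89 and 10.15 in WT, 10.19 and 10.17 in TIA1 KO and 11.66 and 11.64 in TIAR KO MEF. Between the knockouts 1 of the 10 was called higher and 2 lower in TIAR KO MEF, beside 1.72% and 1.63% of all probes. Cd68 was higher (1.48 ± 0.15 on the log2 scale, adjusted p = 0.0264), and Itgam (-1.66 ± 0.17, adjusted p = 0.0287) and Tyrobp (-1.61 ± 0.19, adjusted p = 0.0354) were lower, in a comparison in which limma called 0 of all probes without either TIAR KO array (6318 and 6402 had an unadjusted p under 0.05). Csf1r and Fcer1g were well above background on both WT arrays, both TIAR KO arrays and 1 TIA1 KO array, Aif1 on the WT arrays alone, and Tyrobp and Laptm5 on 1 TIA1 KO array alone. Ptprc, Emr1 and Lyz2 were not well above background on any array. The part of these markers in the cathepsin values was not tested. Of 5 osteoclast, 4 endothelial and 4 lymphocyte markers 0 were called in either knockout, beside 3.54% (TIA1 KO) and 5.76% (TIAR KO) of all probes. Of 5 epithelial markers, beside 2.18% and 3.39% of all probes called higher, Krt8 rose in TIA1 KO MEF (called under 5 of 14 alternatives) and Cdh1, Krt8 and Krt18 rose in TIAR KO MEF.

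The genes nearest to Ctsh and Ctsc in profile were sought among 18885 probes with 1 gene name and a level well above background on both arrays of a group, by the root mean square distance of log2 values centred on each probe's mean over the 6 arrays. The 3 nearest to Ctsh were Blnk, Il1rl1 and Hoxa11as. Blnk, an adaptor of B-cell receptor signalling, read 8.57 and 8.82 in WT, 13.60 and 13.81 in TIA1 KO and 6.60 and 6.94 in TIAR KO MEF, the same order of groups as Ctsh. Il1rl1 and Hoxa11as differed from WT MEF by 6.87 and 6.38 in TIA1 KO MEF on the log2 scale. In TIAR KO MEF they differed by only -0.12 and -0.09 and were not called, unlike Ctsh and Blnk. The 3 nearest to Ctsc were Gpnmb, Tbx5 and Isg15. Ctsc was near background on all 4 knockout arrays, as was Tbx5, and Ctsh and Blnk on the TIAR KO arrays, so the likeness there is between readings near background and the 3 genes of each set are not ranked. Gpnmb, a transmembrane glycoprotein of lysosomes and melanosomes, read 12.43 and 12.50 in WT, 9.57 and 9.46 in TIA1 KO and 7.82 and 7.70 in TIAR KO MEF. Unlike Ctsc it was well above background on all 6 arrays.

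Many lysosomal genes carry a palindrome in the promoter, TCACGTGA, the core of the element bound by the Tfeb family. RefSeq promoters (GRCm38.p6, from 250 bases before to 50 after the gene start) were listed for 8 of the 10 cathepsins, with 9 promoters, and 2 of these, of Ctsa and Ctsd, held the 8 letters, beside 0.974% of all 32851 promoters. As the motif is its own reverse complement, both strands were read at once. The sites are shown with 11 bases on either side and the motif in capitals, since they are the 2 of these 8 cathepsins whose listed promoter held it. Promoters of Ctsb and Ctsh were not analysed here.
Ctsa, chr2:164833749-164833778, + strand: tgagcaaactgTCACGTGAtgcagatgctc
Ctsa, chr2:164833766-164833795, + strand: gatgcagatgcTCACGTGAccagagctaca
Ctsd, chr7:142387908-142387937, - strand: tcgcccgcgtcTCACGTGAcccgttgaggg
Neither gene was called in a comparison. A match is a description of sequence and not of binding.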

How the data were processed

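The 6 arrays carried RNA of WT MEF (2), TIA1 KO MEF (2) and TIAR KO MEF (2). For each array the authors deposited the spot intensities measured by the scanner software, with local background, linear and not yet normalized. A table of normalized log2 values by the authors, also deposited, correlated with the values used here at r between 0.997 and 0.999 for the same array. Background was corrected by normexp (offset 50), followed by log2, 1 pass of loess towards the mean array and quantile normalization. Control and outlier spots were left out and spots of a probe averaged. No probe was left out for low intensity, and a probe counted as well above background where 50% or more of its spots had that rating. Each comparison was fitted with limma, the tool of the study's methods, on its own 4 arrays without covariates, a choice made here, and p-values were adjusted over all 55681 probes. A bound ("at least") replaced each dim array by its lowest log2 value rated well above background, or by the probe's own value where higher. SE is the standard error of the limma fit.

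The cathepsins, the related genes and markers, and the comparisons were chosen with earlier results of these data known. Named were the 10 members, called genes of the lists with a few members of each that were not called, Tia1, Tial1 and Gapdh, the markers, and the 3 nearest profiles of Ctsh and of Ctsc. Cstb, Igf2r, M6pr, Lgmn, Neu1, Glb1, Ctse, Cts8 and the uncalled markers were named outside that rule, after their values were seen. Probe positions are those of the scanner files (mm9). RefSeq accessions (27220 of 27752 matched) and promoters come from GRCm38.p6. The fit was tested on simulated data. Computations used R 4.3.3 with limma 3.58.1 and the data.table package (1.17.8), and Python 3.11.15 with pandas 2.3.3, numpy 2.4.6 and matplotlib 3.10.9.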

Additional observations from a re-analysis of the deposited data

How the results depend on the processing

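Ctsh and Ctsc kept their signs against WT MEF under all alternatives and with each array left out, but counts of called cathepsins did not hold everywhere, and where no construction shows it the cause was not tested. In TIA1 KO MEF the count of 2 became 0 with processed intensities scaled to their 75th percentile (limma then called 0 probes in all, with 27765 at an unadjusted p under 0.05), 5 with a common array median, 1 with the mean over all probes of a gene, and 0 to 2 with 1 array left out. In TIAR KO MEF the count of 2 lay between 2 and 3 with 1 array left out, and the common median gave 3. Between the knockouts the count of 1 became 2 with an offset of 16, 2 with all 3 groups fitted together, 0 with the replicate block (limma then called 0 of all probes, with 10684 at an unadjusted p under 0.05), and 0 to 3 with 1 array left out. Ctsh lost its call without TIAR KO array 1 or 2, at log2 differences of -7.97 and -7.73. The Ctsz log2 difference was -1.26 without TIA1 KO array 2, -0.72 without TIA1 KO array 1 and -0.99 with all arrays.

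Replicate numbers did not pair the samples: deviations of same-numbered arrays correlated at 0.08 (WT and TIA1 KO), 0.03 (WT and TIAR KO) and -0.07 (TIA1 and TIAR KO). With the block the counts against WT MEF stayed at 2 in each knockout.

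Of 83 log2 fold changes of Ctsh and Ctsc under the alternatives, 0 changed sign, 24 moved by more than the spread between replicates, 10 were no longer called and 4 became called, all 4 of them Ctsc between the knockouts. Of 333 of the other 8 genes, 28 changed sign and 7 became called. Against WT MEF in TIA1 KO MEF they were Ctsb at -0.86 and Ctsd at -0.95 with the common median, Ctsl at 0.005 in the authors' table, and Ctsk at 1.47 with processed intensities. With 1 array left out, Ctsk lay between -0.56 and 0.12, Ctsz between -0.95 and 0.63 and Ctsl between -0.084 and 0.032. In TIAR KO MEF they were Ctsb at -0.32 and Ctsd at -0.20 with the common median and Ctsb at -0.071 with processed intensities. With 1 array left out, Ctsd lay between -0.024 and 0.54, Ctsk between -0.20 and 0.26 and Ctsa between -1.35 and 0.22. Between the knockouts they were, with the common median, Ctsa at 0.78, Ctsb at 0.54, Ctsd at 0.75, Ctsl at 0.38 and Ctsz at 0.15, with processed intensities Ctsa at 0.0077, Ctsf at -0.95 and Ctsk at -1.18, and with the mean over probes Ctsa at 0.44. With 1 array left out, Ctsa lay between -1.09 and 0.48, Ctsf between -0.34 and 0.50 and Ctsk between -0.091 and 0.59. Ctsc had no measured level in either knockout, so nothing is read from its signs or calls between them.

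The same alternatives, chosen after seeing the data, were run for 34 called values of related and marker genes. Of 475 values, 371 stayed called in the same direction, 102 were no longer called, and 2 changed sign, Gnptab (-0.31) and Lrp1 (-0.24) in TIA1 KO MEF with the common median. Itgam in TIA1 KO MEF stayed called under 5 of 14. The whole array shifted with the scaling: over all probes the median in TIA1 KO MEF was -0.67 with the common median and 1.98 with processed intensities, beside -0.09. Probes called numbered 15801 and 0 there, 1309 with the authors' table, 671 with the block, 3986 with all groups fitted together and 10735 without TIA1 KO array 2, beside 1969. In TIAR KO MEF they lay between 2247 (mean over all probes of a gene, which tests genes) and 4139 (common median), beside 3206. Between the knockouts they were 8307 with the common median, 3183 with all groups together and 10086 without TIA1 KO array 2, beside 1866. Ctss could not be tested among probes well above background, nor Ctsc between the knockouts.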
